A study of Ovis aries with 9 samples.

Results

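Among 11709 genes expressed in cultured sheep rumen epithelial (RE) cells, 205 genes (1.75%) had far fewer counts after verteporfin than in untreated cells, while their mean level after GA-017 lay close to that of untreated cells. The members were chosen by their measured values. Counts were scaled to the total of each library (CPM), and a gene entered when its mean was at least 1 CPM in any group. The log2 ratio of a treated group over the untreated group was taken after adding 0.1 CPM to both means. Members had a verteporfin ratio of -1.5 or less with every verteporfin library below every untreated library, and a GA-017 ratio between -0.25 and 0.25. The table held 25962 genes in all.

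RNA was sequenced from primary RE cells that had been isolated from the rumen of newborn Hu lambs. The Con group was left untreated, the GA group received 10 μM GA-017 for 24 h, and the VP group received 5 μM verteporfin for 24 h, with 3 wells in each group. The study chose these conditions by cell viability. In its viability assay at 24 h, these doses raised viability with GA-017 and lowered it with verteporfin. Both agents were diluted in DMSO, and the methods describe Con as untreated and name no DMSO for it. The GA wells therefore share the solvent with the VP wells, and the Con wells may not. The replicates were wells of a culture, so the spread between them measures well-to-well differences and no differences between lambs.

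YAP1 and TAZ are transcriptional coactivators at the end of the Hippo pathway. When the LATS kinases phosphorylate them they are held in the cytoplasm and degraded, and when they are not phosphorylated they enter the nucleus and bind TEAD proteins, which bring them to genes of growth, adhesion and cell survival. GA-017 inhibits the LATS kinases and so activates YAP1 and TAZ, whereas verteporfin, a porphyrin also used as a photosensitizer, disrupts the binding of YAP1 to TEAD. The rumen wall is lined by a stratified squamous epithelium, in which basal cells divide and their daughters flatten and keratinize, and which absorbs the short-chain fatty acids made by the microbes of the rumen.

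The deposited counts carry Ensembl identifiers without gene symbols, and a RefSeq table of 35057 sheep genes held 0 of the 25962 identifiers. The names, functions and sequences of the members, their part in the Hippo pathway and the cell type markers of the cultures were therefore not analysed here. Library totals ranged from 14458606 to 15814380 counts. A floor of 3 counts corresponded to 0.195 CPM at the median total, which covers counting error only.

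The rule on VP and the rule on GA split the strongly lowered genes unevenly. A VP ratio of -1.5 or less was found for 552 genes, and for 537 of these every VP library was also below every Con library. Of the 537 genes, 205 (38.2%) had a GA ratio within 0.25 and became members, 259 (48.2%) were lower than that in GA, and 73 (13.6%) were higher. Over all 11709 genes the same ranges of the GA ratio held 48.3%, 30.0% and 21.7%. The comparisons with Con share the Con libraries, so these shares are a description without a test. More of the strongly lowered genes were also lower in GA than lay near Con in GA.

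**Figure D1:**
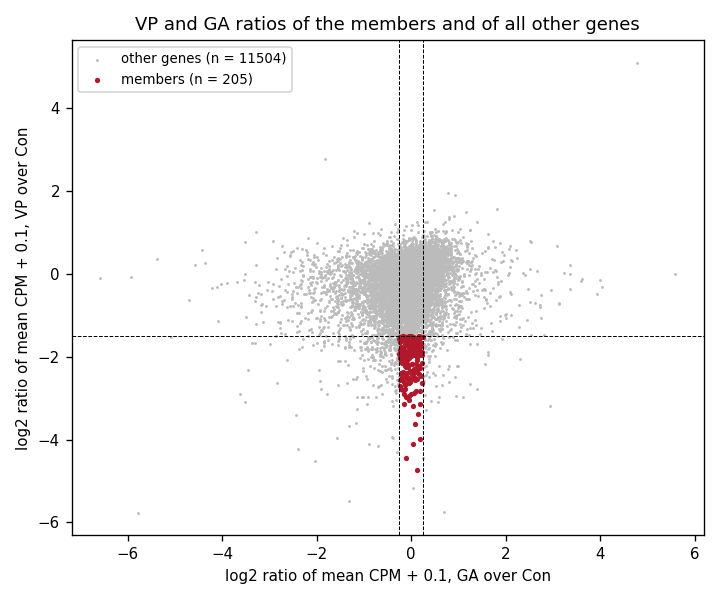
Log2 ratio of GA over Con (horizontal axis) and of VP over Con (vertical axis), each from group means of CPM plus 0.1, with 1 point per gene. The 205 members (red) fill the strip between the dashed lines at -0.25 and 0.25 and below -1.5, where the rule placed them, and the other 11504 genes (grey) surround it on both sides.

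As a group, the members took 2.38%, 2.32% and 2.34% of the counts in the 3 Con wells and 2.53%, 2.34% and 2.35% in the 3 GA wells. In the VP wells they took 0.406%, 0.388% and 0.425%. The VP shares lay far below all others, and the ranges of Con and GA overlapped. The Con mean was 2.35% ± 0.0331, the GA mean 2.41% ± 0.110 and the VP mean 0.406% ± 0.0183 (SD, n = 3). These values chose the members and are given as a description. In cultures measured in bulk, fewer cells of a type and less RNA per cell cannot be told apart.

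The 2 most abundant members alone made up 35.5% of the members' counts in Con and 12.3% in VP. Without them the members' share averaged 1.51% ± 0.0202 in the Con wells, 1.53% ± 0.0263 in the GA wells and 0.356% ± 0.0170 in the VP wells (SD, n = 3). Both sets of shares follow from the choice of the members.

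The typical member was expressed at a modest level. The median CPM of the members was 14.7, 14.8 and 19.2 in the Con wells, 17.7, 15.0 and 14.2 in the GA wells, and 3.38, 3.23 and 5.00 in the VP wells. Each VP median was below every Con and GA median. Within groups, well 3 of Con, well 1 of GA and well 3 of VP stood above their partners. Between 1 and 2 members were under 1 CPM in a Con well and between 1 and 3 in a GA well. In the VP wells 38, 43 and 24 members were under 1 CPM.

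**Figure D2:**
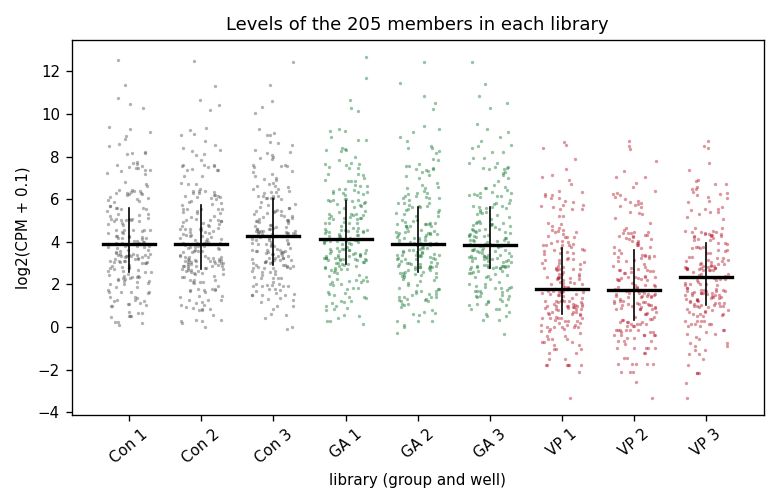
Levels of the 205 members in the 9 libraries on a log2(CPM + 0.1) axis, with 1 point per gene, a bar at the median and a vertical line from the first to the last quartile. The medians of the 3 VP wells, which correspond to 3.38, 3.23 and 5.00 CPM, lie below those of all Con and GA wells.

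The VP ratios ran from -4.73 to -1.501 with a median of -1.90, and the ratio of the linear means (with 0.1 CPM added) had a median of 3.73-fold lower in VP. The quartiles were -2.29 and -1.64. The median over all 11709 genes was -0.09. A drop of at least 4-fold was seen for 79 members, of at least 8-fold for 10 and of at least 16-fold for 3. Most members thus lay close to the limit of the rule. The 3 members nearest to it had VP ratios of -1.507, -1.504 and -1.501, and the 3 genes just beyond it that met the other conditions had -1.495, -1.491 and -1.482.

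In GA the members spread over the whole permitted range, from -0.25 to 0.24, with a median of -0.04 and quartiles of -0.15 and 0.09. The median over all genes was -0.03. The ratio was above 0 for 91 members and below 0 for 114, and it was within 0.1 of 0 for 88. At the lower limit the nearest members had GA ratios of -0.249, -0.247 and -0.246 and the nearest genes outside had -0.252, -0.251 and -0.25005. At the upper limit they had 0.223, 0.223 and 0.241 inside and 0.260, 0.261 and 0.263 outside. The limits cut through a continuous range of values.

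The most abundant member was ENSOARG00020024839. It had 5984, 5697 and 5526 CPM in the Con wells, 6493, 5612 and 5516 CPM in the GA wells, and 337, 323 and 340 CPM in the VP wells. Con and GA overlapped, and all VP wells lay far below both. The mean CPM of Con was 5736 ± 231, that of GA 5874 ± 538 and that of VP 333 ± 9.02 (SD, n = 3), a 17.2-fold lower level in VP. The fitted log2 fold change from edgeR was -4.06 with a standard error of 0.063 in VP and 0.05 with a standard error of 0.065 in GA. Standard errors given here were derived from the F statistic of the test. Its counts in VP were 5188, 4801 and 5377, so depth did not limit this value.

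The member with the lowest VP ratio was ENSOARG00020021234, the member ranked 46 by its Con level. It had 64.0, 66.2 and 71.0 CPM in Con, 80.4, 69.6 and 69.0 CPM in GA, and 1.82, 2.56 and 2.91 CPM in VP. Con averaged 67.1 ± 3.60 CPM, GA 73.0 ± 6.40 CPM and VP 2.43 ± 0.557 CPM (SD, n = 3). Con and GA overlapped, with GA well 1 the highest, and VP lay far below both. Its level in VP was 26.6-fold lower (log2 ratio -4.73), with an edgeR log2 fold change of -4.73 and a standard error of 0.139. The VP values rested on 28, 38 and 46 counts, against 997, 1016 and 1027 in Con.

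Members after these are given by rank, and they were chosen for description after their values had been seen. The next lowest VP ratio belonged to the member ranked 66 by Con level, with 519, 494 and 537 counts in Con, 586, 453 and 411 in GA and 21, 15 and 33 in VP. It fell from 34.2 to 1.49 mean CPM, 21.6-fold. The member ranked 2 by Con level had 2624, 2569 and 2608 CPM in Con, 3318, 2770 and 2742 CPM in GA, and 169, 159 and 168 CPM in VP. Its VP level was 15.7-fold lower, close to the 17.2-fold of the most abundant member. In GA all of its wells were above all of its Con wells, so it was near Con by the rule but did not overlap it.

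Large and moderate ratios stood side by side among the 10 most abundant members, which held 65.0% of the members' counts in Con. Their VP ratios ran from -4.10 to -1.55. The member ranked 8 fell from 543 to 44.0 mean CPM (12.3-fold) and the member ranked 5 from 1164 to 128 (9.07-fold). The members ranked 9 and 7 were 6.90-fold and 5.34-fold lower. Smaller ratios were found for the members ranked 3 (1640 to 364 mean CPM, 4.50-fold), 10 (3.34-fold), 4 (1361 to 419, 3.25-fold) and 6 (653 to 223, 2.93-fold). The member ranked 4 kept 418, 419 and 419 CPM in the VP wells and was the most abundant member there. The order of the members by level therefore differed between Con and VP.

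**Figure D3:**
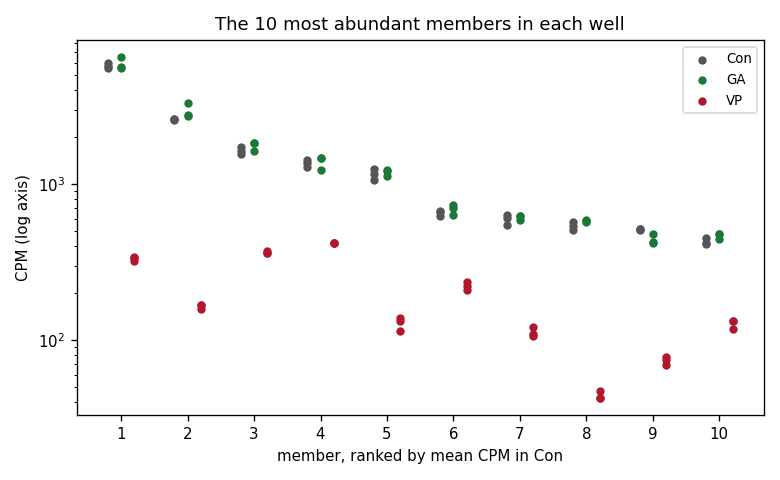
CPM on a log axis of the 10 most abundant members, ranked by their mean CPM in Con, with 1 point per well. The VP wells lie below all Con and GA wells for each of the 10, by 17.2-fold for rank 1 and by 2.93-fold for rank 6.

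The members covered a wide range of Con levels, from 1.03 to 5736 CPM with a median of 16.8 and quartiles of 6.75 and 54.2. The median over the 11709 genes was 22.8 CPM. When all genes were split into 4 equal bins of Con level, from low to high, the bins held 57, 66, 34 and 48 members. Members were over 100 CPM in 32 cases in Con and in 8 cases in VP, and 79 were under 10 CPM in Con. Low and high genes were both present, with the third bin the least filled.

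The median drop was similar over the range of Con levels, whereas the lowest ratios lay mostly among abundant members. With the members themselves split into bins of 52, 51, 51 and 51 by Con level, the median VP ratio was -1.85 for members of 1.03 to 6.75 CPM and -1.91 for those of 6.81 to 16.8 CPM. It was -1.89 for those of 16.9 to 54.2 CPM and -1.95 for those of 57.0 to 5736 CPM. The lowest ratio was -3.14, -2.97, -4.43 and -4.73 in these bins, from low to high. A ratio of -2 or less was found for 17, 19, 18 and 25 members of the bins, and 8 of the 10 members at -3 or less were in the highest. The rule ends all of these values at -1.5, which holds the medians close together. Spearman's rho between Con CPM and VP ratio was -0.11 over the 205 members, which share their libraries, so it is a description across genes. The pseudocount of 0.1 CPM narrows the ratios of the lowest members in particular.

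Most members remained detectable in VP. At least 1 CPM was measured in every Con well for 201 members, in every GA well for 201 and in every VP well for 157, and 22 members were under 1 CPM in every VP well. Between 6 and 10 members had at most 3 counts in a VP well and 1 member in each VP well had 0. Only the member ranked 205 by Con level had at most 3 counts in all VP wells, with 3, 3 and 0 against 17, 17 and 13 in Con. The member ranked 187 had 0, 0 and 18 counts in VP and 40, 57 and 27 in Con, so its VP value rested on 1 well.

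Every VP library was below every Con library for all 205 members, as the rule required, and this was the case for 33.2% of the 11709 genes. The lowest Con well exceeded the highest VP well by a median of 1.42 on the log2 scale, and by at least 1 for 173 members. The smallest gap was 0.17. Every VP library was also below every GA library for all 205 members, against 32.5% of all genes, which follows closely from the limits on both ratios. The GA and Con libraries were free of overlap for 14 members, 10 with GA below Con and 4 with GA above, while this was found for 46.4% of all genes. The rule used both contrasts, so nothing is read from these shares.

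The edgeR quasi-likelihood fits covered 11403 genes with at least 1 CPM in all 3 wells of a group, and 203 members were among them. The members ranked 203 and 205 by Con level did not pass that filter. At FDR < 0.05 and a log2 fold change below -1, all 203 were lower in VP, as were 10.3% of the genes tested. At FDR < 0.05 and an absolute log2 fold change above 1, 0 of the members differed in GA, against 7.71% of the genes tested with edgeR. DESeq2 and limma-voom also gave 0, with no share of all genes given for them. The limits on the GA ratio fixed these counts in advance. Without the condition on fold change, 3 members passed FDR < 0.05 in GA, against 36.4% of the genes tested. These 3 were the members ranked 2, 9 and 11, which were 0.20 higher, 0.20 lower and 0.20 lower in GA on the log2 scale of edgeR. A gene could thus pass this FDR limit in GA and still lie within the limits of the rule. The FDR was adjusted over all genes tested and not over the members. The members were chosen on the same contrasts in the same libraries, so these calls describe the members and do not test them.

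The drop differed between the VP wells. Taken against the Con mean, the median log2 ratio of the members was -1.995 in VP well 1, -2.16 in well 2 and -1.71 in well 3 (mean -1.95 ± 0.228, SD, n = 3). The other 11504 genes had medians of -0.11, -0.11 and -0.03. A ratio of -1.5 or less in the single well was found for 186, 197 and 142 members, and a ratio of -1 or less for 203, 205 and 201. In all 3 VP wells 125 members were at -1.5 or less. The drop was smallest in VP well 3, and its direction in single wells was fixed by the rule.

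The rule placed the GA means near Con, and the single GA wells spread around them. The median log2 ratio over the Con mean was 0.11 in GA well 1, -0.12 in well 2 and -0.11 in well 3 (mean -0.04 ± 0.132, SD, n = 3). The single wells were within 0.25 for 140, 148 and 146 members. In GA well 1, 57 members were above that range and 8 below, whereas 7 were above and 50 and 52 below in the other wells. All 3 GA wells were within 0.25 for 68 members. By these medians, a GA mean near Con was the average of a higher well 1 and lower wells 2 and 3.

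By the median, the members varied more between wells of a group than the other genes did, but the most abundant members did not. Over the 3 wells the members' median coefficient of variation reached 14.04% (Con), 13.8% (GA) and 21.4% (VP), against 9.09%, 10.49% and 9.50% for the other genes. For the 259 genes lowered in VP and lower in GA it was 12.8%, 15.7% and 22.2%. The 73 genes lowered in VP and higher in GA had 10.6%, 9.55% and 18.5%. The 259 genes thus varied much as the members did, and the sets were not matched for level. For 55 members the highest VP well was more than 2 times the lowest. Lower members have more counting error, and the 51 members of the highest Con bin had median coefficients of 5.66%, 8.77% and 7.25%. Each of these was below the median of the other genes in its group.

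The variation went in the same direction in many members, a pattern looked at after the values had been seen. Con well 3 was the highest Con well for 139 members (67.8%), against 40.3% of the other genes. GA well 1 was the highest GA well for 158 members (77.1%), against 44.5%. VP well 3 was the highest VP well for 134 members (65.4%), against 43.8%. All of these held together for 86 members (42.0%) and for 2265 of the other genes (19.7%). The members' median deviation from the group mean on the log2 scale was 0.16 in Con well 3, 0.18 in GA well 1 and 0.24 in VP well 3. Among the sequencing statistics that the study gives, these were the wells with the lowest GC content of the reads within their groups, and the part of read GC in the values was not tested.

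**Figure D4:**
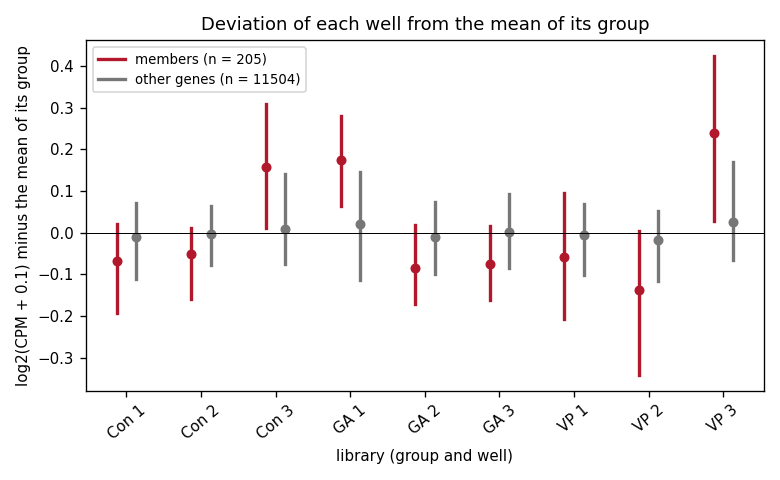
Deviation of each well from the mean of its group on the log2(CPM + 0.1) scale, as the median (point) and the range from the first to the last quartile (line) over the 205 members (red) and the 11504 other genes (grey). The members' medians are highest in Con well 3 (0.16), GA well 1 (0.18) and VP well 3 (0.24), and those of the other genes stay near 0 in all wells.

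The same wells stood highest in the neighbouring sets of genes. Of the 259 genes lowered in VP and lower in GA, 63.3% were highest in Con well 3, 64.9% in GA well 1 and 55.6% in VP well 3. For the 73 genes lowered in VP and higher in GA the shares were 47.9%, 60.3% and 53.4%. Across the 4 bins of members by Con level, from low to high, GA well 1 was the highest GA well for 61.5%, 80.4%, 96.1% and 70.6%. Con well 3 was the highest Con well for 71.2%, 76.5%, 80.4% and 43.1%, and VP well 3 the highest VP well for 65.4%, 72.5%, 74.5% and 49.0%. The highest bin thus kept the GA pattern and showed less of the others. Of the 10 most abundant members, 9 were highest in Con well 1 and 8 lowest in Con well 3. In GA well 1, 4 of these 10 were highest and 6 lowest. The differences between these sets were not tested.

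To see the values of genes in wells that had not chosen them, the rule was applied to 2 wells of each group and the genes so chosen were read in the well left out. Each ratio there was of the treated well over the Con well of the same number. The numbers chosen were 168, 194 and 238 when wells 1, 2 and 3 were left out, of which 126, 157 and 138 were members. In the left-out wells VP was below Con for 166 (98.8%), 193 (99.5%) and 237 (99.6%) of the genes chosen, against 56.1%, 57.3% and 55.2% of all genes. The median VP ratio was -1.93, -1.86 and -1.84 in the wells that chose the genes and -1.94, -1.99 and -1.66 in the wells left out. The medians over all genes in the wells left out were -0.09, -0.11 and -0.07. The lower level in VP was thus seen again in the third well, where a ratio of -1.5 or less was kept by 127 (75.6%), 156 (80.4%) and 151 (63.4%) of the genes. Among all genes that share was 5.35%, 6.35% and 4.89%.

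The GA side of the rule carried over less. In the wells left out the median GA ratio of the genes chosen was 0.27, -0.04 and -0.35, against 0.03, -0.04 and -0.08 over all genes. The ratio was within 0.25 for 65 (38.7%), 113 (58.2%) and 80 (33.6%) of the genes chosen, and for 43.0%, 43.1% and 37.2% of all genes. For wells 1 and 3 the genes chosen were therefore within the limits no more often than genes at large. The genes chosen and all genes were not matched for level or for spread between wells. The ratios for wells 1 and 3 set GA well 1 over Con well 1 and GA well 3 over Con well 3. Among the members GA well 1 and Con well 3 stood highest in their groups, and the part of this pattern in the ratios was not tested. Each left-out well was 1 library per group, so these values have no error of their own, and no test was made of them.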

How the data were processed

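Reads were filtered by the authors with CASAVA (version 1.8) and aligned by HISAT2 against Oar_rambouillet_v1.0, the sheep assembly. The deposited values are unnormalized counts of the 9 libraries, 1 column per well. The counting tool and its annotation are not given in the sources used here, nor is use of strand, so overlapping genes and near-identical copies may share reads. Libraries were assigned to groups by their names.

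CPM, ratios, well values and the left-out wells were computed from the counts by the rule given above. The members, the lists and the comparisons were chosen with earlier results of these data known. Identifiers were printed for the member with the lowest VP ratio and the member with the highest Con level, since no symbols could be paired. Genes that reached 1 CPM in all 3 wells of any group were tested with edgeR 4.0.16 in R 4.3.3 (TMM, glmQLFit, glmQLFTest, the 6 libraries compared, Benjamini-Hochberg adjustment). The edgeR standard errors are the absolute log2 fold change divided by the square root of the F statistic, since the test itself returns none. DESeq2 1.42.0, the tool of the study, and limma-voom (limma 3.58.1) were alternatives. Other scalings, pseudocounts, limits, low-level filters, a replicate block and leaving out each library were also tried.

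Deviations of same-numbered Con and VP wells from their group means correlated at 0.155, 0.109 and 0.366 over genes, which met the condition for treating the numbers as pairs (each above 0.1), although Con well 1 and VP well 2 also reached 0.145. The pairing comes only from the numbers in the library names. For Con and GA the same-numbered values were -0.284, 0.057 and -0.165, which did not meet it, and Con well 3 and GA well 1 reached 0.298. The fits reported have no block, and a block by number was used as an alternative in both comparisons. Same-group wells differed beyond counting error (chi-square over degrees of freedom from 2.73 to 12.4), so each was counted as a library.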

Additional observations from a re-analysis of the deposited data

How the results depend on the processing

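The number of members depended on the limits of the rule. It was 205 as reported, 130 with a pseudocount of 1 CPM, 492 with a VP limit of -1, 79 with a VP limit of -2 and 334 with a GA limit of 0.5. With TMM or DESeq2 scaling it was 179 or 178, of which 164 were members in both cases. Those scalings moved the median VP ratio of all genes from -0.09 to 0.00. Leaving out a library gave 174 (without GA well 1, 155 of them members) to 268 (without VP well 3, 204 of them members). The fewest members, 137, were kept without Con well 3, where 175 genes met the rule. The median VP ratio of the members was -1.64 with a pseudocount of 1 CPM and stayed between -2.04 and -1.83 when a library was left out. It was -1.81 with TMM or DESeq2 scaling, -1.69 with cyclic loess normalization (203 members) and -1.93 with the replicate block. The median GA ratio lay between -0.12 and 0.05 when a library was left out, so its sign was not fixed.

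With the replicate block, which averages same-numbered wells (in GA these share only a number), 207 genes met the rule, 198 of them members. The blocked edgeR fit called 203 members lower in VP and 0 different in GA. Those counts equalled the ones without the block, and the rule largely fixed both in advance. No share of all genes is given for the blocked fit. Without the block, 10.3% of all genes tested were lower in VP and 7.71% differed in GA. Dropping the fold change condition gave 3 members in GA, against 36.4% of the genes tested. Between 202 and 205 members were called lower in VP under the 13 alternatives, with no share of all genes given for them. The rule on the VP ratio largely fixed these counts in advance. The planned comparison of list genes and the gene and sequence features were not run, for lack of symbols. Depth limits the members under 1 CPM in VP.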
